A study of Homo sapiens with 8 samples.

Results

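Chromatin accessibility of LX-2 cells after 4 days on a hydrogel was compared with that after 2 days, with soft and stiff matrices pooled. LX-2 cells are immortalised human hepatic stellate cells, labelled wild type, so all libraries come from 1 line. The cells were moved from tissue culture plastic onto fibronectin-coated polyacrylamide hydrogels with a stiffness near 2 kPa (the soft matrix) or near 40 kPa (the stiff matrix). Open chromatin was then profiled by ATAC-seq, in which a transposase inserts sequencing adapters into accessible DNA. All 8 libraries of the series entered the comparison, 4 from day 4 (D4) and 4 from day 2 (D2), with 2 replicates of each matrix on each day. The study describes its sequencing replicates as biological, without saying what separates them, and p-values measure only the spread between these libraries. The unit of comparison was the protein-coding gene, of which 20090 on chromosomes 1 to 22 and X were used, with its body and 10 kb on each side. A gene was described by the rank of its strongest peak within each library's own list, in which rank 1 is the peak with the highest −log10 p, and by its number of peaks. Described in detail are the genes for which every D4 library lay beyond every D2 library in the same direction.

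Hepatic stellate cells are the collagen-producing mesenchymal cells of the liver. When they are activated they lose their stored retinoid, proliferate and become contractile myofibroblasts, driven by growth factors such as PDGF and TGF-beta and by the stiffness of the matrix they sit on. Open chromatin is found at the promoters of active genes and at distal elements, and AP-1, the dimer of FOS and JUN family proteins, and TEAD, the DNA-binding partner of YAP, are factors often linked to distal elements in mesenchymal cells.

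Day 4 lists were longer on average, and the libraries of day 4 were deeper. The lists held 64595 ± 6812 peaks on day 4 and 52126 ± 15241 on day 2 (SD, n = 4 each), a difference that did not pass an exact two-sided permutation test (p = 0.171). Estimated depth was 2.69 to 3.15 fragments per kb on day 4 and 0.780 to 2.32 on day 2, without overlap (exact permutation p = 0.0286, the smallest that 4 against 4 libraries allow). Depth and day therefore cannot be told apart, and each count below is given beside its value in lists of equal length, the 29789 strongest peaks of each library. That number is the full list of D2 soft replicate 1, the shallowest library, which had a peak at 14046 genes against 16702 to 17520 in the other libraries. In lists of equal length the number of genes with a peak was 14129 ± 267 on day 4 and 14030 ± 138 on day 2 (exact permutation p = 0.629), and the strongest 29789 peaks covered 21.4 ± 2.62 Mb on day 4 and 18.4 ± 1.33 Mb on day 2, again without overlap (exact permutation p = 0.0286). With the days permuted within each matrix, neither depth nor this covered length passed (exact permutation p = 0.0556 for both, the smallest that this design allows). Peaks with a summit within 1 kb of a transcription start made up 23.2% ± 1.14 of the lists on day 4 and 26.3% ± 3.31 on day 2 (exact permutation p = 0.0571). In lists of equal length these shares were 31.3% and 30.6% (exact permutation p = 0.457).

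**Figure D1:**
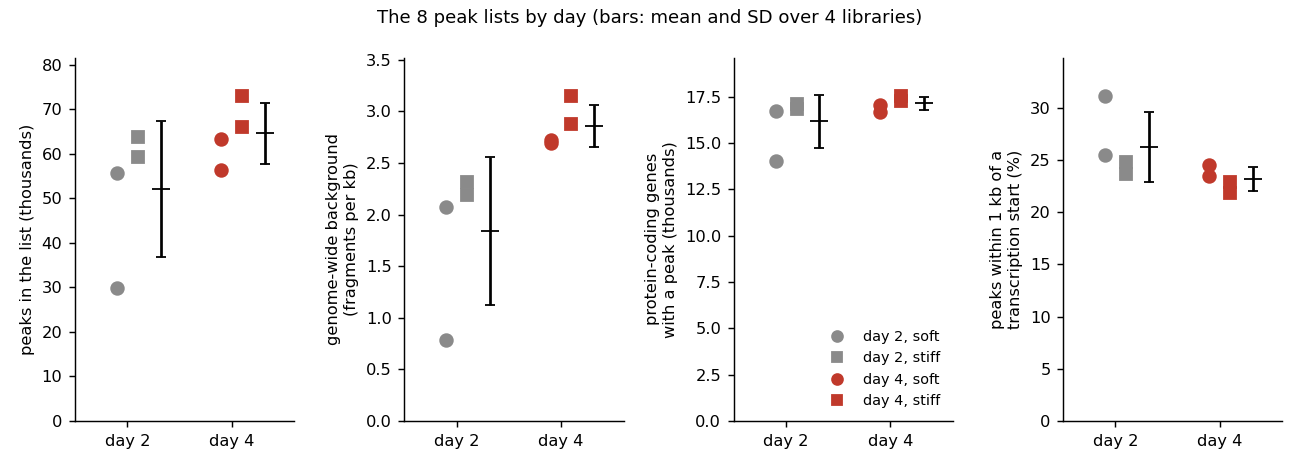
Number of peaks, genome-wide background in fragments per kb, genes with a peak and share of peaks within 1 kb of a transcription start, for each of the 8 libraries (circles soft, squares stiff), with the mean and SD over the 4 libraries of a day. The background of all 4 day 4 libraries lies above that of all 4 day 2 libraries, while the other 3 measures overlap between the days.

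Marker genes of several liver cell types had peaks. Of 14 stellate and mesenchymal markers, 7 had a peak in all 8 lists and 2 in none, and of 7 hepatocyte markers 1 had a peak in all 8. In lists of equal length the summed peaks of the hepatocyte markers were 1 to 3 per library on both days, against 14 to 15 on day 2 and 13 to 14 on day 4 for the stellate and mesenchymal markers. All 4 cholangiocyte markers, 4 of 4 matched endothelial markers and 5 of 6 leukocyte and Kupffer markers also had peaks in all lists. Over all 20090 genes, 13777 had a peak in all 8 lists and 1869 in none. With so few markers these counts do not measure cell identity.

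By the test across all genes, 0 genes passed for a change in best-peak rank from day 2 to day 4. Ranks of the 13777 genes with a peak in every list were turned into normal scores, in which a higher score is a stronger peak, and fitted with limma with stiffness as a block. The number of genes with an adjusted p under 0.05 was 0 (0.0%), and the smallest adjusted p was 0.971. At an unadjusted p under 0.05 there were 653 genes, or 4.74% of those tested, of which 301 had the higher score on day 4 and 352 the lower. Leaving out D2 soft replicate 2 gave 1 called gene, NUP160, which encodes a nuclear pore protein. The median SE of a gene's day difference was 0.29 score units, and the SD of the differences over genes was 0.30.

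Genes whose libraries did not overlap were few in either direction. Every D4 library had a better rank than every D2 library for 228 of 20090 genes (1.13%) and a worse rank for 257 (1.28%). In lists of equal length the counts were 228 better (1.13%) and 167 worse (0.831%), all of them also in the former sets. The cut to equal length is the full list of D2 soft replicate 1. A better-ranked gene must outrank its value in that library, so its D4 peaks all lie inside the cut. The better set therefore cannot change, and the worse set can only shrink. The repeated count of 228 is thus no check on depth. Genes whose libraries did not overlap were picked by the values that are described below, so no test is attached to them. The limma fit above remains the test. Of the 228 genes, 202 had a peak in all 8 lists and 26 in 7, while of the 167 genes 166 had a peak in all 8. Neighbouring genes shared peaks, and the best peaks of the 228 genes lay in 176 distinct sites and those of the 167 genes in 136.

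Of the genes with the largest rank difference in favour of day 4, nearly all had their best peak at their own transcription start, with 1 exception among 8. HACD2, an enzyme of very-long-chain fatty acid elongation, had day 2 best ranks of 24406 and 13379 on soft matrix and 13034 and 18211 on stiff, and day 4 best ranks of 8231 and 5998 on soft and 5032 and 2984 on stiff. Its site, chr3:123303396-123304663 in build hg19, lay 93 bp from the start and was the best site in all 8 libraries, and the day difference was 1.16 ± 0.29 score units (SE). GCA, which encodes the calcium-binding protein grancalcin, had D2 ranks of 17794, 8262, 8082 and 9410 and D4 ranks of 2037, 1061, 3577 and 5584, in the order soft, soft, stiff, stiff that is kept from here on. The difference for GCA was 1.05 ± 0.30 score units, with the weakest D2 rank in the shallowest library. FAM168A stood far up every list, at ranks 953, 1028, 1519 and 3326 on day 2 and 753, 346, 113 and 118 on day 4. All 4 D4 values lay above the best D2 value, although the soft libraries differed by little (753 against 953). Ranked by fold enrichment, ZNF777, GCA, GLMN and ZNF559 of these 8 genes kept their days apart, while the days overlapped for HACD2, BCL7B, FAM168A and KRT81. The difference by fold enrichment was 0.58 for HACD2, 0.19 for FAM168A and 0.65 for KRT81.

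For 4 of the 8 genes the day 2 values included a missing peak in D2 soft replicate 1. ZNF777, a zinc finger gene, had no peak there and ranks of 27216, 30334 and 39296 in the other D2 libraries, against 8529, 9158, 21846 and 11262 on day 4. BCL7B, whose product is a subunit of the SWI/SNF chromatin remodelling complexes, had ranks of 6102, 11425 and 13515 in the 3 D2 libraries with a peak and 5253, 5352, 3994 and 1300 on day 4. GLMN, which encodes glomulin, a regulator of ubiquitin ligases, shares its start site with RPAP2 and had D2 ranks of 4485, 4710 and 8739 and D4 ranks of 3398, 2266, 2569 and 3106. ZNF559, whose window also holds the read-through gene ZNF559-ZNF177, had D2 ranks of 29792, 23946 and 31401 and D4 ranks of 23282, 18688, 17791 and 8466. These genes lacked a value in 1 library and were not in the limma fit. In that library they took the rank after the last peak. This filled value entered the difference that placed them among the 8. The exception in position was KRT81, a hair keratin gene next to KRT86, whose best site lay 10493 bp from its start, in the flank at chr12:52674016-52675236. KRT81 ranked 15335, 7872, 13633 and 7166 on day 2 and 2602, 2163, 1484 and 7115 on day 4, so that the closest pair across the days, both stiff, nearly met (7166 against 7115).

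Among the genes chosen for stellate biology, COL1A1, ROCK1, ZEB1, PDGFRB and PLK1 ranked better in every D4 library. COL1A1, which encodes the main chain of fibrillar collagen I, had best ranks of 456, 940, 387 and 601 on day 2 and 266, 160, 190 and 221 on day 4. Its best peak was therefore among the strongest 1000 of every list, and each D4 library placed it higher. The site lay downstream of the gene at chr17:48255352-48256333, 8548 bp from the nearest annotated start, and was the best site in all 8 libraries. PDGFRB, the receptor through which PDGF drives stellate cell proliferation, had D2 ranks of 13822, 12850, 14626 and 14873 and D4 ranks of 7617, 10514, 6286 and 11814. The best site of PDGFRB was inside the gene, 5703 bp from a start, in 5 of 8 libraries, so its ranks come from more than 1 site. ZEB1, a repressor of epithelial genes, had ranks of 27135, 24489, 30728 and 27438 on day 2 and 21418, 19039, 11176 and 22416 on day 4. ROCK1, a kinase that activates actomyosin contraction, had 5868, 4181, 4608 and 3014 on day 2 and 2257, 1805, 2752 and 1973 on day 4 at its own start. PLK1, a mitotic kinase, had 8619, 12814, 8924 and 8966 on day 2 and 6263, 5219, 8026 and 5735 on day 4. The commonest best site was the best in 6 of 8 libraries for ZEB1 and 4 for PLK1, so their ranks come from more than 1 site. The day differences were 0.45 ± 0.27 for COL1A1, 0.43 ± 0.27 for PDGFRB, 0.69 ± 0.28 for ZEB1, 0.42 ± 0.27 for ROCK1 and 0.36 ± 0.27 for PLK1 (score units ± SE), and the limma adjusted p was 0.971 for each. Ranked by fold enrichment in place of p-value, only ZEB1 of these 5 kept its days apart, and the difference for COL1A1 turned to −0.18. The differences for ROCK1 and PLK1 by fold enrichment were 0.23 and 0.16, and that for ZEB1 was 1.40. Around transcription starts alone the difference for PDGFRB was 0.15, and without D2 soft replicate 2 that for PLK1 was 0.24.

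COL1A1, PDGFRB and ZNF777 are genes that ranked better on day 4, with a distal, an intragenic and a promoter best site. The sequences at these sites are shown as examples. They are 101 bases centred on the summit, from GRCh37, plus strand, with capitals marking TGACTCA or TGAGTCA (AP-1), GGAATG (TEAD) and GGGCGG (GC box) on either strand. The windows are chr17:48255885-48255985 for COL1A1, chr5:149522653-149522753 for PDGFRB and chr7:149157708-149157808 for ZNF777.
COL1A1: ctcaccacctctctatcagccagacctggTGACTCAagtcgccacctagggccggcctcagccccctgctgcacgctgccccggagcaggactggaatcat
PDGFRB: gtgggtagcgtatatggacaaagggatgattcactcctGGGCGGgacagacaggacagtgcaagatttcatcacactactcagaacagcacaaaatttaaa
ZNF777: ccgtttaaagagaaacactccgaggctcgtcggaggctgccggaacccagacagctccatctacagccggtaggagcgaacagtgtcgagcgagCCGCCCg

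Genes that ranked worse in every D4 library included the early response factor KLF6 and the RNA helicase DDX17. KLF6, a zinc finger transcription factor that is induced early in stellate cell activation, had best ranks of 13842, 18520, 23884 and 29556 on day 2 and 40289, 34806, 34379 and 29970 on day 4. The D4 values were all weaker, but the closest pair, both stiff, nearly met (29556 against 29970). These ranks come from more than 1 site, since the start site of KLF6, chr10:3827020-3828158, was the best site in 5 of 8 libraries and had no peak in D2 soft replicate 1. At the start site the ranks were 18520, 23884 and 29556 in the other D2 libraries and 40289, 43051, 45025 and 29970 on day 4, outside the strongest 29789 peaks in all 4 D4 libraries. DDX17 had ranks of 10127, 29721, 24690 and 22938 on day 2 and 40880, 42134, 43538 and 33448 on day 4, all from the peak at its own start, chr22:38901577-38902765. Its difference was −1.18 ± 0.31 score units, and that of KLF6 was −0.87 ± 0.28. Without D2 soft replicate 1 the difference for DDX17 was −0.75, and in the gene body without flanks that for KLF6 was −0.34.

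THY1, NIPAL4, NDUFC2, BLK, ERCC1 and METTL4 made up the rest of the 8 with the largest difference in this direction. THY1 encodes CD90, a surface glycoprotein of fibroblasts, and had D2 ranks of 13726, 14570, 6693 and 15593 and D4 ranks of 35122, 21258, 18116 and 31386. The site of THY1 lay 7710 bp from its start, at chr11:119303169-119304385. NIPAL4, a magnesium transporter family member, had 9299, 12244, 12978 and 15336 on day 2 and 37203, 32574, 20302 and 21778 on day 4 at an intragenic site, with the weaker D4 values on soft matrix. NDUFC2, a subunit of respiratory complex I, had ranks of 10186, 13874, 26544 and 24830 on day 2 and 34542, 30146, 29294 and 42118 on day 4. BLK, a Src family kinase of B cells, had 10480, 11809, 9719 and 7592 on day 2 and 23976, 16088, 24380 and 33608 on day 4. ERCC1, part of the nucleotide excision repair nuclease, was far up the day 2 lists at 749, 730, 3709 and 1877 and stood at 13640, 4178, 3790 and 5793 on day 4, its stiff libraries nearly meeting (3709 against 3790). METTL4, a methyltransferase gene that shares its promoter with the kinetochore gene NDC80, had 2218, 5075, 4931 and 3444 on day 2 and 13334, 13460, 8357 and 10434 on day 4. The ranks of BLK and ERCC1 come from more than 1 site. Their commonest best site was the best in 4 of 8 libraries for BLK and 5 for ERCC1.

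HSPA5 and DKK1, from the lists chosen for stress and Wnt signalling, also ranked worse in every D4 library. HSPA5 encodes the endoplasmic reticulum chaperone BiP and had ranks of 3951, 1445, 5663 and 2933 on day 2 and 6766, 7103, 8795 and 7684 on day 4. Its difference of −0.66 ± 0.27 score units was −0.68 on soft and −0.64 on stiff matrix, but −0.28 in the gene body without flanks and −0.30 around transcription starts. DKK1, a secreted Wnt antagonist, had 3128, 7328, 7855 and 8256 on day 2 and 12813, 10222, 13440 and 8990 on day 4. Its difference was −0.54 ± 0.28 score units, −0.36 without D2 soft replicate 1 and 0.28 around transcription starts, with a limma adjusted p of 0.971 for both HSPA5 and DKK1. With peaks ranked by fold enrichment the days overlapped for HSPA5, DKK1, KLF6 and ERCC1, while NIPAL4, DDX17, NDUFC2, THY1, BLK and METTL4 kept theirs apart. The difference for ERCC1 was −0.96 by p-value and −0.63 by fold enrichment. For HSPA5 the commonest best site was the best in 5 of 8 libraries, so its ranks come from more than 1 site.

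The best site of DKK1, in the flank of the gene, held an AP-1 motif near the summit, and it is shown with the start-proximal sites of KLF6 and DDX17 and the flanking site of THY1, which did not. The windows are chr10:54078814-54078914 for DKK1, chr10:3827637-3827737 for KLF6, chr22:38902432-38902532 for DDX17 and chr11:119303355-119303455 for THY1, with the same build, strand and capitals.
DKK1: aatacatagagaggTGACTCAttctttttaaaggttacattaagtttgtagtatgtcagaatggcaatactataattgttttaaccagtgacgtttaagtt
KLF6: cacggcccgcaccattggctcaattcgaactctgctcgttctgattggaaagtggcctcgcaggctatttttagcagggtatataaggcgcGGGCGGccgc
DDX17: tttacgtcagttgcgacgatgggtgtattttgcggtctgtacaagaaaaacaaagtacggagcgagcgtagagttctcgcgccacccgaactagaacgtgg
THY1: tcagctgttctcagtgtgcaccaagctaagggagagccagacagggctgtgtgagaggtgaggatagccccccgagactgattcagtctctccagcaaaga

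**Figure D2:**
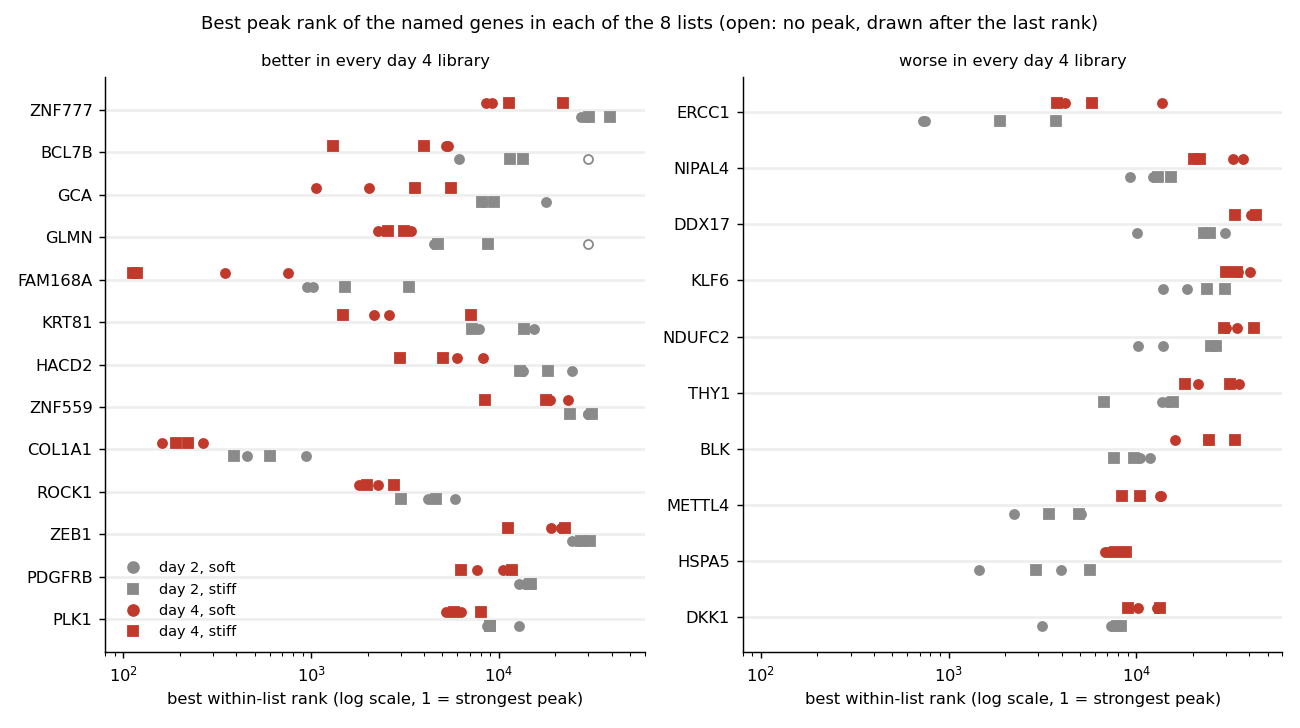
Best within-list rank (log scale, left is stronger) of the named genes in each of the 8 libraries, with day 2 in grey and day 4 in red, circles for soft and squares for stiff, and open symbols for a list without a peak. In the left panel every red symbol lies left of every grey symbol of the same gene, and in the right panel every red symbol lies right of them.

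The sites behind these genes were also described by position and sequence, in lists of equal length unless stated. The best site lay within 1 kb of the gene's own start for 65.4% of the 228 genes that ranked better, 43.7% of the 167 that ranked worse and 46.4% of all 18221 genes with a site. The 18221 include genes without a peak in some of the lists. In the lists as deposited the median best rank was 7919 for the better, 9195 for the worse and 12564 for all these genes. Whether the shares in this paragraph follow peak strength was not tested. The median GC content of the 201 bp around the summit was 65.7% for the better, 55.7% for the worse and 58.7% for all genes' best sites. A GC box was found in 54.0%, 27.9% and 36.7% of distinct best sites, respectively. AP-1 motifs were found in 7.95% of the sites of better-ranked genes, 22.8% of those of worse-ranked genes and 19.7% of all best sites, and TEAD motifs in 7.39%, 21.3% and 14.0%. For the 257 genes that ranked worse in the lists as deposited the AP-1 share was 19.6%, the level of all genes, and the TEAD share was 21.96%. The best sites of the 32 genes with more peaks on day 4 lay at the own start for 34.4% of genes and held AP-1 in 34.4% and TEAD in 21.9%. For the 25 genes with fewer peaks these shares were 44%, 23.8% and 4.76%, so the rank and the number of peaks did not give the same order. The best site of a gene need not be the site whose peak was gained or lost, as for DMD and COL12A1. Motifs at gained or lost sites were not counted. The same peaks chose these genes, so the shares are a description with no test. Depth moved with day, and the part of depth and of library composition in these shares was not tested. The share of promoter peaks among the strongest 29789 did not separate the days (29.2% to 31.5% on day 2, 30.1% to 32.9% on day 4).

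**Figure D3:**
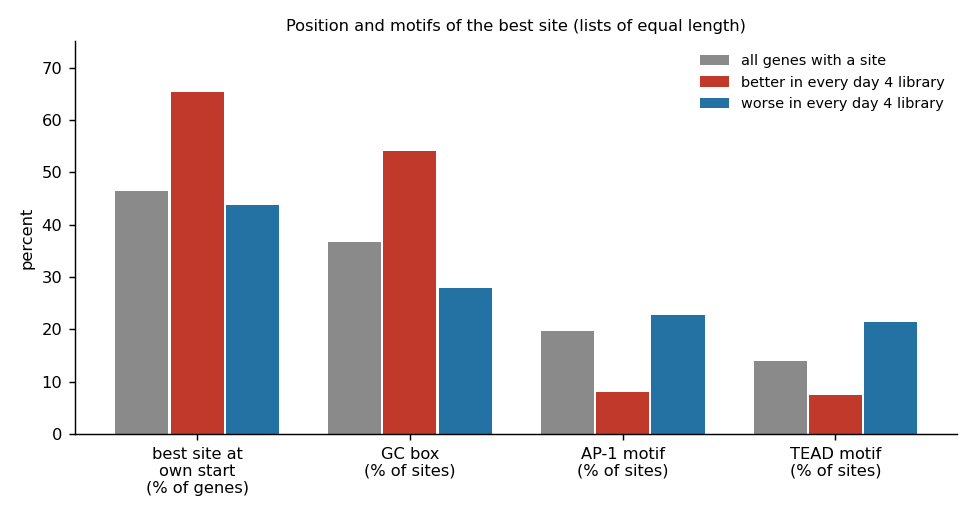
Share of genes whose best site lies within 1 kb of their own start, and share of distinct best sites with a GC box, AP-1 or TEAD motif in the 201 bp around the summit, for all genes with a site, the 228 genes better and the 167 genes worse in every day 4 library. Start-proximal sites and GC boxes were most frequent among the better-ranked genes (65.4% and 54.0%), and AP-1 and TEAD motifs among the worse-ranked (22.8% and 21.3%).

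In 28 gene lists chosen for stellate biology and for general cell functions, 0 of 457 tested members passed the limma test on ranks, as did 0 of all 13777 genes. Libraries did not overlap for 5 better and 4 worse of the 517 matched members in lists of equal length, which can be read against 1.13% and 0.831% of all genes. The median day difference was −0.04 score units over the members and 0.00 over all genes tested. Of the members 211 had the higher score on day 4 and 246 the lower, and of all genes tested 6936 and 6841. Among 28 tested chromatin regulators, such as EP300 and the SWI/SNF subunits, 5 had the higher score on day 4 and 23 the lower, with a median of −0.16, and 0 were past an unadjusted p of 0.05. Of 18 tested genes for serum response factor, its cofactors and immediate early factors, 4 were higher and 14 lower, with a median of −0.15, and KLF6 was the 1 member whose libraries did not overlap. The 17 tested genes of stellate activation and fibrillar matrix, with COL1A1 the 1 member that separated, had a median of −0.14, with 7 higher and 10 lower. Adherens junction genes had 9 higher and 15 lower of 24, with a median of −0.10, and inflammatory and NF-kB genes 7 and 12 of 19, with −0.13. Of 10 tested epithelial to mesenchymal transition factors, ZEB1 and TCF4 among them, 3 were higher and 7 lower, with a median of −0.11. Contractile and stress fibre genes went the other way, with 13 higher and 7 lower and a median of 0.12. So did stellate quiescence and retinoid storage genes (10 and 5, median 0.07) and stellate and mesenchymal markers (5 and 2, median 0.18). Cholangiocyte markers had 4 higher and 0 lower (median 0.46), and endothelial markers 1 and 3 (median −0.17). The lists given here are examples. AP-1 factors (8 higher, 7 lower, median 0.02) and YAP and TEAD genes (10 and 10, median −0.04) were close to the value over all genes, as were the 16 housekeeping genes (8 and 8, median 0.00). All of these are values over list members, and none was past the test gene by gene.

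The number of peaks per gene separated the days in 1 direction only in the lists as deposited, which are longer on day 4. In these lists 178 genes (0.886%) had more peaks in every D4 library than in any D2 library and 0 (0.0%) had fewer. In lists of equal length 32 genes had more (0.159%) and 25 fewer (0.124%), and 3 genes, COL12A1, DMD and RERGL, had more under both. DMD, the very long gene of dystrophin, had 5, 15, 13 and 16 peaks on day 2 and 17, 17, 17 and 18 on day 4 as deposited, and 5, 5, 6 and 5 against 8, 8, 7 and 8 in lists of equal length. A site within DMD at chrX:31598563-31599289 was among the strongest peaks of all 4 D4 lists and of no D2 list, though 3 D2 lists held it further down. RERGL, a Ras-like gene, had 0 peaks in the D2 lists of equal length and 1 in each D4 list, at chr12:18428531-18429524.

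By the limma fit on log2(peaks + 1) in lists of equal length, 6 of 5576 genes had more peaks on day 4 (0.108%) and 3 fewer (0.0538%) at an adjusted p under 0.05. COL12A1, a collagen that decorates collagen I fibrils, had 3 peaks in each D2 list and 4 in each D4 list (log2 difference 0.32 ± 0.01, limma adjusted p = 0.000206). Its added site, chr6:75840482-75841120 inside the gene, was among the strongest 29789 peaks of 4 D4 libraries and 1 D2 library, and the deposited lists held 3, 5, 5 and 5 peaks on day 2 and 6 in each library on day 4. ANAPC13, a subunit of the anaphase-promoting complex, and MRPS10, of the mitochondrial ribosome, went from 2 peaks in each D2 list to 3 in each D4 list (0.42 ± 0.01, limma adjusted p = 2.98e-05). PARD6B, a cell polarity gene, went from 3 to 4 in each list, GPAT3, an acyltransferase of triglyceride synthesis, from 2, 2, 1 and 1 to 4, 4, 2 and 2, and TRAPPC14 from 2, 2, 1 and 1 to 3, 3, 2 and 2. Fewer peaks were found for IL21R, an interleukin receptor gene (3 in each D2 list, 2 in each D4 list), and for ENSG00000288550 (4 and 3). For 6 of the 9 genes all libraries of a day had the same count, so the fit saw no spread, and the difference is 1 peak. With the lists as deposited 0 of the 9 were called, and leaving out a library gave between 13 and 32 calls, with 8 or 9 of the 9 among them each time. At equal depth 9 genes were called, 0 of them among these 9, and at q up to 0.01 the calls shared 1 gene with them. In windows of 1 kb around transcription starts the fit called 0 genes.

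The following genes are examples from the 32 with more and the 25 with fewer peaks in lists of equal length. They were chosen after their values were seen. ADAM12, a metalloprotease gene linked to fibrosis, had 9, 10, 10 and 10 peaks on day 2 and 14, 14, 12 and 11 on day 4, while the deposited lists overlapped (9, 19, 15 and 18 against 18, 17, 17 and 20). TCF4, a basic helix-loop-helix factor from the epithelial to mesenchymal transition list, had 6, 6, 5 and 7 peaks on day 2 and 8, 8, 9 and 8 on day 4. Its best-rank difference went the other way, at −0.39 ± 0.29 score units. E2F2, a cell cycle transcription factor, had 2, 3, 2 and 2 against 0, 1, 1 and 0. The histone genes H2AC16, H1-5, H3C11 and H4C13 share a window on chromosome 6 and had 3, 2, 2 and 2 peaks on day 2 and 0, 0, 1 and 1 on day 4. The peak at chr6:27832754-27835448, at the start of H2AC16, ranked 18691, 19355, 27252 and 19172 on day 2 and 38574, 30535, 38694 and 38096 on day 4. These histone genes have near-identical copies in the genome, so reads may not be placed with certainty among them.

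**Figure D4:**
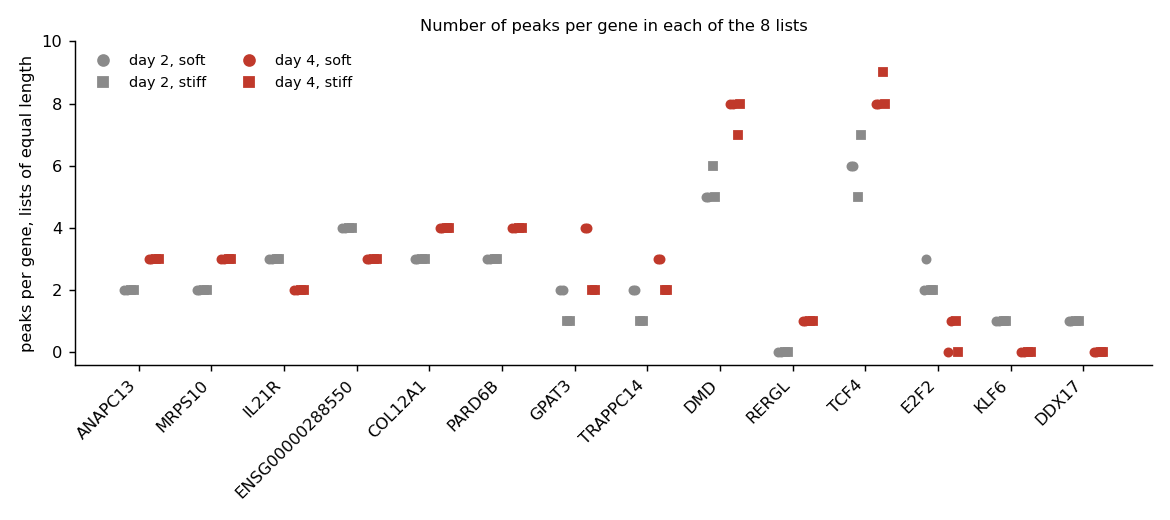
Number of peaks per gene in each of the 8 lists of equal length, for 8 of the 9 genes called by limma, DMD and RERGL, and the named genes TCF4, E2F2, KLF6 and DDX17 (grey day 2, red day 4, circles soft, squares stiff). Most differences are 1 peak, as for COL12A1 (3 against 4), while DMD has 5 to 6 peaks on day 2 and 7 to 8 on day 4.

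The day difference was also set side by side between the matrices, which share no library. Over the 13777 genes the difference on soft and that on stiff matrix had a Pearson correlation of −0.0975 (Spearman −0.0925), given as a description across genes, which are not independent. The sign was the same for 46.9% of genes. Of the 2167 genes whose soft libraries all ranked better on day 4 in lists of equal length, 20.2% also ranked better in the stiff libraries, against 18.2% of all genes. Of the 3083 genes that ranked worse on soft matrix, 10.4% also did on stiff matrix, against 9.84% of all genes. The opposite direction on stiff matrix was found for 16.9% of the former genes (worse, 9.84% of all genes) and 27.3% of the latter (better, 18.2% of all genes). All genes here include those without a peak on stiff matrix, which tie and cannot separate, among them 1869 without a peak in any list. The shares of all genes are lowered by this in both directions, so an excess over them cannot be read as a shared day difference. The interaction of day and stiffness was past an adjusted p of 0.05 for 0 genes by limma (smallest adjusted p 0.277), with 1086 genes (7.88%) at an unadjusted p under 0.05. This count depended on D2 soft replicate 2, since without that library 65 genes were called, 8 with the larger difference on stiff matrix and 57 with the smaller. In that fit D2 soft is the single shallow library, D2 soft replicate 1, which is assumed to vary like the other groups. Of the genes described above, GCA had a day difference of 1.67 on soft and 0.44 on stiff matrix, FAM168A 0.37 and 1.39, HACD2 1.22 and 1.11, DDX17 −1.31 and −1.05, and KLF6 −1.23 and −0.51. These 5 had the same sign on both matrices, as their selection requires.

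**Figure D5:**
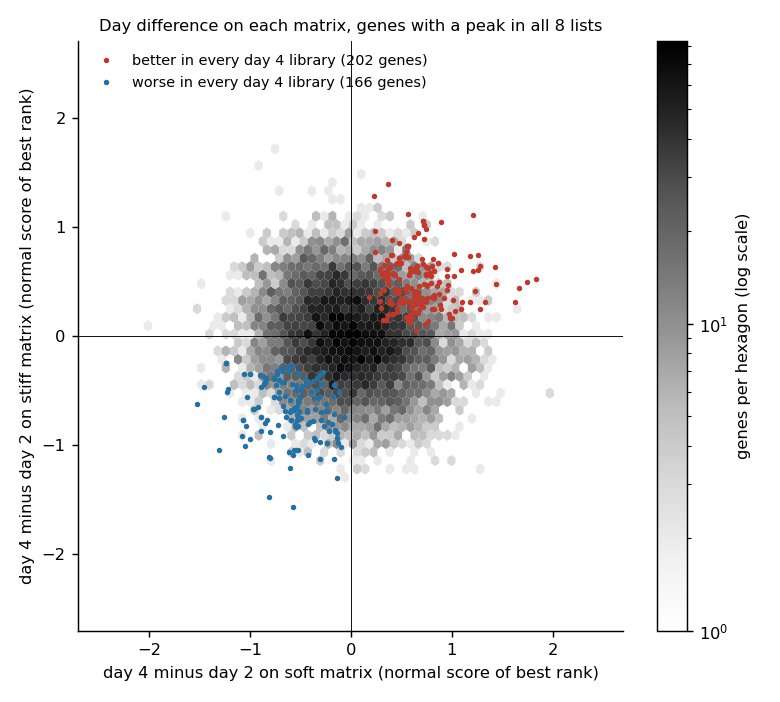
Day 4 minus day 2 difference of the best-rank score on soft (horizontal) and stiff matrix (vertical) for the 13777 genes with a peak in all 8 lists, as hexagons shaded by the number of genes on a log scale, with the 202 better-ranked genes in red and the 166 worse-ranked in blue. The cloud of all genes has no upward slope (Pearson −0.0975), and the coloured genes lie in 2 opposite corners because they were selected to.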

How the data were processed

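The authors trimmed reads with TrimGalore, aligned them to hg19 using Bowtie2 and ran MACS2 on each library separately at a q-value up to 0.05, and their processing notes also name Picard and bedtools (Bowtie2 2.4.1, bedtools 2.24.0). The treatment of Tn5 offsets, read filters and MACS2 options were not given in the sources used here. Each list deposited by the authors gives a position, a summit offset (other), a score of 10 times the −log10 q, the fold enrichment (a ratio to the local background), and the −log10 p and −log10 q values. The study's own count comparison (DiffBind, DESeq2) rests on reads not analysed here.

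Peaks were ranked within each list by −log10 p (ties averaged), since values are comparable within a list only. Genes were the protein-coding entries of GENCODE release 44 on GRCh37, with 10 kb flanks, and a peak counted when it overlapped by 1 bp. A gene without a peak took the rank after the last peak of its list. Normal scores of the rank and log2(peaks + 1) of genes with a mean of at least 2 peaks were fitted with limma 3.58.1 (R 4.3.3), with stiffness as a block and Benjamini-Hochberg adjustment. Library values were compared by exact two-sided permutation over 70 arrangements. Within each matrix there are 36 arrangements and the smallest p is 0.0556. Depth was the lowest background recovered from fold and p-value under the MACS2 model over the shortest peak, and it rests on that assumption. The mean number of peaks per gene replaced the planned median. Overlapping peaks were merged into sites.

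Named were the genes called by limma, for each measure and direction up to 8 genes with the largest difference whose libraries did not overlap in the deposited lists and in lists of equal length, and list members whose libraries did not overlap. Some genes are not reported here and stay in the counts. The members and gene lists were chosen with earlier results of these data known. Of 518 list genes 517 matched the annotation. Alternatives were other windows, ranking by fold enrichment, a q-value up to 0.01, equal depth, other models and leaving out each library.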

Additional observations from a re-analysis of the deposited data

Results flagged for a closer look

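In 64 sets of 4 libraries of a day, 6 had a library far from the other 3, measured as its gap over the range of the 4. For continuous, normally distributed values chance alone marks about 1 in 20 sets. That rate does not hold for small whole numbers of peaks or for genes picked by these same values. D2 soft replicate 1 had a depth of 0.780 fragments per kb against 2.08 to 2.32 in the other day 2 libraries, and a peak at 14046 genes against 16724 to 17108. The best rank of GCA in that library was 17794 against 8082 to 9410 on day 2. PLK1 ranked 12814 in D2 soft replicate 2 against 8619 to 8966. For DMD the number of peaks in lists of equal length was 6 in D2 stiff replicate 1 against 5 in the other 3, and 7 in D4 stiff replicate 1 against 8, each a step of 1 peak.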

How the results depend on the processing

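By limma on ranks the number of called genes was 0 under every alternative that kept all libraries, the replicate block included (0), and 0 to 1 when a library was left out, the 1 being NUP160 without D2 soft replicate 2 (adjusted p = 0.0323). Replicate numbers did not pair libraries (correlation of same-numbered deviations −0.0160 on soft and 0.0324 on stiff matrix), and the replicate block gave 6 calls on peak number in place of 9. Peak-number calls were 3 in gene bodies, 0 around transcription starts, 4 at q up to 0.01, 23 without the filter on low numbers, 13 with the lists as deposited and 13 to 32 without a library, with 32 without D2 soft replicate 2. The interaction called 0 to 65 genes without a library, with 1 without D2 soft replicate 1, and each such fit leaves 1 group with a single library.

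Genes worse in rank numbered 158 around transcription starts, 398 by fold enrichment and 167 in lists of equal length. The 228 better genes shared 73 with the 188 found by fold enrichment (32.0% and 38.8%) and 221 with the 230 at equal depth. Genes with more peaks numbered 42 around transcription starts, 32 in lists of equal length and 27 at equal depth, and genes with fewer 25 in lists of equal length and 7 at equal depth. Without a library, where 3 face 4 and separation is easier, the counts were 387 to 630 (better), 396 to 666 (worse), 188 to 556 (more) and 0 to 55 (fewer, 55 without D2 soft replicate 1).

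The depth difference of 1.02 fragments per kb was 0.665 to 1.18 without a library. With 3 day 4 libraries it gave an exact p of 0.0571. Covered length differed by 3.01 Mb in lists of equal length. The share of peaks at starts, a measure added after seeing the data, differed by −3.07 points, by −3.94 to −1.46 without a library and by 0.689 in lists of equal length. Signs turned for ENSG00000288550 at equal depth (0.066), COL1A1 by fold enrichment (−0.18) and DKK1 around transcription starts (0.28). Of 485 values of named genes, 26 lost their call without a turn of sign, all of them in the 8 named genes called on peak number. ENSG00000288550 at equal depth lost its call as well as its sign. The named genes outside these 8 had no call to lose. Settings in which a named gene was not tested are not among the 485 values. The causes were not tested. The list of D2 soft replicate 1 ends at rank 29789, so weaker peaks have no value there.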
